A study of Mus musculus with 4 samples.

Results

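The 6 conventional actin genes of the mouse were followed in the adult ureter through every probe set that the array's annotation gives to one of them alone. There were 12 such probe sets among 45101. These were 1 for Actg2, 3 for Acta2, 5 for Actb and 1 each for Actg1, Acta1 and Actc1. The 5 of Actb include 3 of the array's own quality controls, which left 9 probe sets among the 45037 that were tested. No probe set carried an actin symbol together with another symbol. The samples were 4 ureters of adult male FVB/N mice at Theiler stage 28 that carry SMGA/EGFP, a transgene named for smooth muscle gamma actin, the product of Actg2. The ureter was cut out between kidney and bladder by its green fluorescence, so the level of Actg2 is not independent of how the tissue was taken. RNA was not pooled, was amplified in 2 rounds and was hybridised to 1 array a sample. All samples form 1 group, numbered replicates 1 to 4 in an order without meaning, so there is no contrast between groups. The labels do not say that each came from another animal, and p-values measure only the spread between these samples.

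Actin is the globular protein that polymerises into the thin filaments of muscle and into the cytoskeleton of every cell. The smooth muscle isoforms are alpha, from Acta2, which prevails in vessels, and gamma, from Actg2, which prevails in visceral muscle such as that of the gut and the urinary tract. Acta1 and Actc1 encode the skeletal and cardiac alpha actins of striated muscle, and Actb and Actg1 the beta and gamma actins of the cytoplasm. Their coding sequences are very alike, so that probe sets tell them apart mainly through their 3′ ends. In the array's naming, _s_at marks probes shared by transcripts of several genes, and _a_at marks probes shared by several transcripts of 1 gene. Among the actins 2 probe sets had _s_at names, those of Acta2 (1416454_s_at) and Actg1 (1415779_s_at), 3 had _a_at names and none an _x_at name.

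Muscle actin genes are known targets of serum response factor, which binds the CArG box. That motif has 2 C, then 6 bases that are each A or T, then 2 G, and reads the same way on both strands. RefSeq promoter windows, from 250 bases before the annotated start to 50 after it, were matched for 4 of the 6 genes by symbol, and are shown because such boxes are what muscle actin promoters are known for. Capitals mark exact CArG boxes and those with 1 base differing.
Acta2, chr19:34255324-34255623, minus strand, GRCm38.p6: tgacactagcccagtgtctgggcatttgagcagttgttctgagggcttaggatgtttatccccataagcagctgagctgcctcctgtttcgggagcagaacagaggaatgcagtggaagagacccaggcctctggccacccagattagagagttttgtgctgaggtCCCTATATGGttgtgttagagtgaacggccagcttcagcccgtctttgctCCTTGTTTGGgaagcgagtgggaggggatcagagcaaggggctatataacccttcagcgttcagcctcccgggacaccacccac
Actg1, chr11:120348446-120348745, minus strand, GRCm38.p6: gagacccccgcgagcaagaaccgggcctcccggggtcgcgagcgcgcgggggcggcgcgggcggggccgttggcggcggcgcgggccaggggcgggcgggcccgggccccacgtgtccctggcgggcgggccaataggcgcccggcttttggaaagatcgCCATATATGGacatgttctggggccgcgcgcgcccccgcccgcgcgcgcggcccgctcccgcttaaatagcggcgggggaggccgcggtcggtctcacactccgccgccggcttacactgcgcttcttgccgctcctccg
Acta1, chr8:123894726-123895025, minus strand, GRCm38.p6: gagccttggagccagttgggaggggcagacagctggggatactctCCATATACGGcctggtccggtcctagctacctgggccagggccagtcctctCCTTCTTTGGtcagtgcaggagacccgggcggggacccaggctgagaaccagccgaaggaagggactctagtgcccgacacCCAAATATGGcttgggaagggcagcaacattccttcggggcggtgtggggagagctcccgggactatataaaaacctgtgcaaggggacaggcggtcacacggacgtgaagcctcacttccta
Actc1, chr2:114052826-114053125, minus strand, GRCm38.p6: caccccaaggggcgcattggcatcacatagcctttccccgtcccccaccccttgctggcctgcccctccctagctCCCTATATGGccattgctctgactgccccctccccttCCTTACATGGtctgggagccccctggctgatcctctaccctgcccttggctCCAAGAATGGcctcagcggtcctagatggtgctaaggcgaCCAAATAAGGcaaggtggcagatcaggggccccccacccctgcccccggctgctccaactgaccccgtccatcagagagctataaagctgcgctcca

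An exact CArG box stood in the windows of Acta1 (CCAAATATGG), Actc1 (CCAAATAAGG) and Actg1 (CCATATATGG), 1 in each. Over all 32851 promoter windows of that length, 1.63% held an exact box. Boxes with 1 base differing numbered 3 in Actc1, 2 in Acta1, 2 in Acta2 and 0 in Actg1, and 19.9% of all windows held at least 1. The Acta2 window held no exact box, and the letters CCCTATATGG occurred in both Acta2 and Actc1. The Actg1 window stood apart in composition, with 77.3% G and C against 62.7% in Actc1, 61.0% in Acta1 and 54.7% in Acta2. A match of letters is a description of the window and shows no binding.

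**Figure D1:**
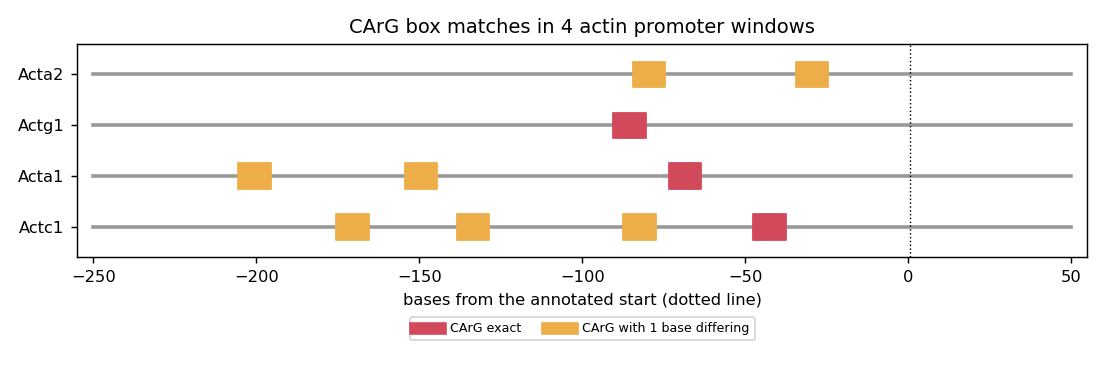
Positions of CArG box matches, in bases from the annotated start, in the promoter windows of 4 actin genes. Red blocks are exact matches, 1 each in Actg1, Acta1 and Actc1, and yellow blocks are matches with 1 base differing, 3 in Actc1 and 2 each in Acta1 and Acta2.

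Levels are given as log2(intensity + 16) with mean ± SD (n = 4), and the number of arrays limits their precision. A probe set was above background where the mean over the arrays lay above the arrays' own thresholds, 7.25, 6.99, 7.57 and 7.36 in replicates 1 to 4, by limma's one-sided moderated test, Benjamini-Hochberg adjusted over all probe sets. Levels of different probe sets are not comparable, so isoforms are compared by their calls and by how each moved between samples. The tissue's own markers were present, with 7 of 7 smooth muscle and 6 of 7 urothelial marker genes above background, and 0 of 4 kidney genes lay over the threshold in any sample. The samples were not alike in their other tissue. Over all named genes 66.9%, 68.5%, 67.4% and 66% were over the threshold in replicates 1 to 4. Replicate 3 had all 6 skeletal muscle marker genes over it, and the other samples had 1 or 2. The 6 liver genes were all over it in replicates 1 and 3, and 1 was in each other sample. Replicates 1 and 2 had all 4 seminal vesicle genes over it, and the others had 1 and 0. In replicate 3 the median deviation of the 6 fibroblast markers from the mean of the rest was -2.14 log2 units, and 0 of 6 fibroblast and 0 of 5 endothelial markers were higher there. Results that rest on replicate 3 are therefore given with and without it.

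Of the 9 tested actin probe sets 5 were above background, where 40.9% of all probe sets were. They belonged to Actg2, Acta2, Actb and Actg1, that is 4 of the 6 genes, where 57.9% of all named genes passed. These are the smooth muscle and cytoplasmic actins, and the striated actins Acta1 and Actc1 were not called. Of the genes called, Actb alone rested on a probe set of the plain _at kind, since Actg2 was called by an _a_at and Acta2 and Actg1 by _s_at probe sets. With _a_at and _s_at probe sets left out, 1 of the 3 genes that remained was called. The test of spread between samples passed 0 of 5 actin probe sets, and 0% of the 18427 above background (limma, adjusted). At an unadjusted p under 0.05 it took 1 of the 5, where 4.64% of those 18427 passed.

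**Figure D2:**
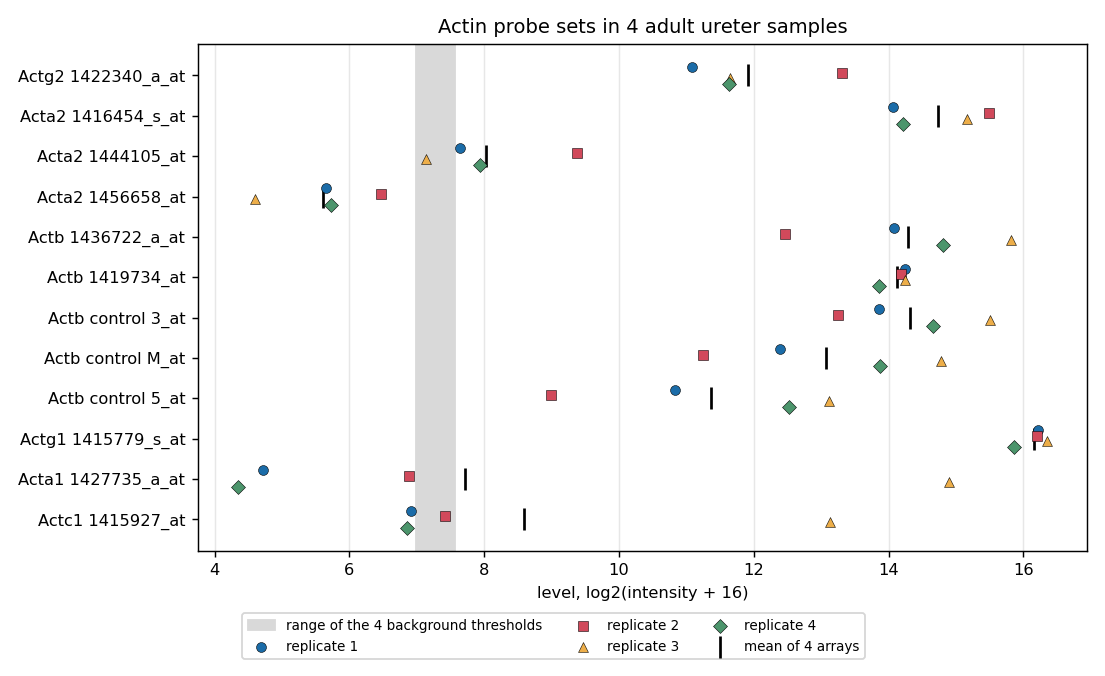
Levels, log2(intensity + 16), of the 12 actin probe sets in each of the 4 samples, with the mean as a black line and the range of background thresholds in grey. Acta1 is over its array's threshold in replicate 3 alone and Actc1 in replicates 2 and 3, while Actg1 and Actb 1419734_at hardly move.

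The smooth muscle actins were present in every sample and were highest in replicate 2. Actg2, the gene the reporter is named for, had intensities of 2154, 10089, 3173 and 3146 in replicates 1 to 4, a level of 11.91 ± 0.96 (adjusted p = 9.58e-06). Replicate 2 deviated by 1.85 log2 units from the rest, which lay close together (SD 0.32 without it), and was 4.68 times the lowest sample. Acta2 by 1416454_s_at had 17157, 45921, 36790 and 18896, a level of 14.73 ± 0.70 (adjusted p = 8.74e-08). Here replicates 2 and 3 were both high and replicates 1 and 4 low, and the highest was 2.68 times the lowest. The deviation of replicate 3 was 0.58 in Acta2 and -0.37 in Actg2, and without replicate 2 it was 1.03 and 0.28, so its sign in Actg2 rests on replicate 2. Genes of another tissue were also highest in replicate 2. The summed intensity of the 4 seminal vesicle markers was 65488 there, against 6426, 430.5 and 221.8 in replicates 1, 3 and 4, and their part in the actin values was not tested.

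A dimmer Acta2 probe set, 1444105_at, did not share the high value of replicate 3. By it Acta2 had intensities of 183, 651, 124 and 228 in replicates 1 to 4, a level of 8.02 ± 0.97. It lay over the threshold in 3 of 4 samples and did not pass the test (adjusted p = 0.177), though it did without replicate 3 (adjusted p = 0.0493). Replicate 2 was again highest, by at least 1.67 log2 units over the others with replicate 3 set at its threshold. Replicate 3 was under its threshold of 7.57, while the other samples were at 7.63, 9.38 and 7.93. By 1456658_at the intensities were 34.3, 72.5, 8.11 and 37.1, under the threshold in every sample, so that their order carries no information. The probe set that was high in replicate 3, 1416454_s_at, has a name that marks probes shared between genes. It was higher still in replicate 2, at 15.49 against 15.17 in replicate 3. Acta1 was under the threshold in replicate 2 and at 14.90 in replicate 3. Pericytes also make Acta2, and of the 5 pericyte markers 3 were over the threshold in replicate 3 and 5 in each other sample. Their summed intensity was 35551 in replicate 3, and 5045, 11600 and 5747 in the others. That sum rests on Rgs5, named after its values were seen, which was at 15.04 in replicate 3 against 11.38 to 12.88 elsewhere. The other 4 markers summed to 1830.0 in replicate 3, and 1664, 4070 and 3107 in replicates 1, 2 and 4. Of these 4, Pdgfrb and Kcnj8 were under the threshold in replicate 3 and over it in each other sample. Cspg4 was highest in replicate 3, at 9.03 against 7.81 to 8.11, and Abcc9 had 10.24 there against 9.13 to 10.42 elsewhere. All 4 were named after their values were seen. The part of shared probes or of pericytes in the Acta2 value was not tested.

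The genes of proteins that work with the smooth muscle actins were, like Actg2, high in replicate 2 and low in replicate 1. All 16 listed contractile partners were above background, where 57.9% of all genes were. Myh11, which encodes the myosin heavy chain of smooth muscle, had levels of 10.42, 11.83, 11.26 and 10.86 in replicates 1 to 4. Tagln, which encodes the actin-binding protein transgelin, had 9.85, 11.49, 10.87 and 10.69. Cnn1, the calponin of thin filaments, had 8.70, 10.54, 9.60 and 9.01. Cald1, caldesmon, had 13.63, 14.78, 13.64 and 13.77. In replicate 2 the list's median deviation was 1.03 log2 units and 16 of 16 genes were higher than the mean of the other samples, while over all 18193 genes the median was -0.04 and 8640 were higher. In replicate 1 it was -0.96 with 2 of 16 higher, against -0.01 over all genes, and -0.55 without replicate 2. When a gene's level was the median over its probe sets, the list stood at 0.19 in replicate 2 and at 0.92 in replicate 3, so its order between those samples depends on which probe sets are read. In whole tissue, fewer muscle cells and less RNA per muscle cell cannot be told apart.

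**Figure D3:**
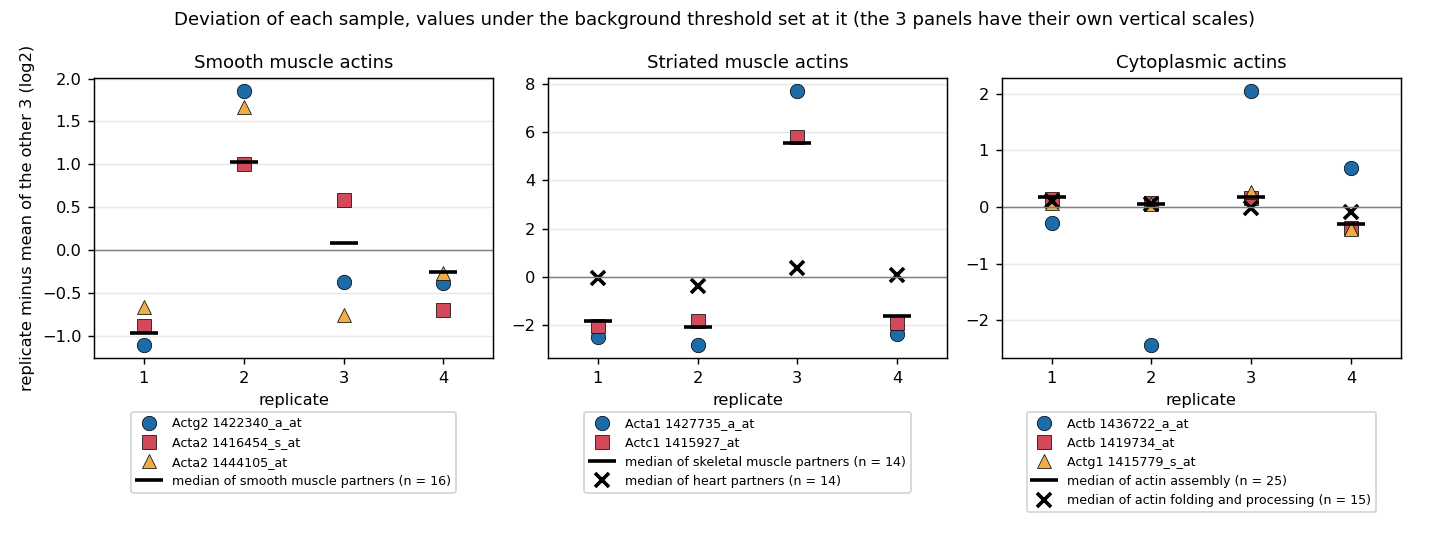
Each sample's deviation, the replicate minus the mean of the other 3 in log2 units, for the actin probe sets (coloured points) and the medians of their partner lists (black marks), with values under an array's threshold set at it, in 3 panels with their own scales. Smooth muscle actins and their partners are highest in replicate 2 (Actg2 1.85), and in replicate 3 Acta1 (7.70), Actc1 (5.79) and the skeletal partners (5.55) are high by at least the differences drawn. Among the 3 cytoplasmic probe sets drawn, Actb 1436722_a_at moves most, between -2.44 and 2.04.

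The cytoplasmic actins were above background in every sample, and 2 of their probe sets hardly differed between samples. Actg1 by 1415779_s_at had intensities of 75916, 75265.5, 83517 and 59716.5 in replicates 1 to 4, a level of 16.16 ± 0.21 (adjusted p = 1.10e-08), and its highest value was 1.40 times its lowest. Actb by 1419734_at had 19276, 18609.5, 19468 and 14799.8, a level of 14.13 ± 0.19 (adjusted p = 1.95e-08), a range of 1.32 times. In both, replicate 4 was lowest and the other 3 lay together. Their centred profiles differed by a root mean square of 0.05 log2 units, the nearest of all pairs of actin probe sets. Of the probe sets above background, 11.5% had a smaller SD than Actg1 and 8.91% a smaller one than 1419734_at. Those shares are over probe sets of any level. Against the prior variance for their own level the spread test gave F = 0.71 and 0.35 (unadjusted p = 0.594 and 0.791). Deviations of this size depend on the scaling. After quantile normalization replicate 4 stood 0.17 above the other samples in Actg1, against -0.39 as deposited, and replicate 3 stood at -0.12, against 0.26.

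A different picture of Actb came from 1436722_a_at, whose intensities were 17248, 5608, 57925 and 28637 in replicates 1 to 4, a level of 14.29 ± 1.42 (adjusted p = 6.87e-07). Replicate 3 was 10.3 times replicate 2, and 96.8% of the probe sets above background had a smaller SD. This was the 1 actin probe set above background with an unadjusted spread p under 0.05 (0.00528, adjusted p = 1.00), and with a constant prior variance that p was 0.0911. The array's control probe sets read Actb at its 3′ end, its middle and its 5′ end. At the 3′ end they gave 14891, 9728, 46676 and 25832 in replicates 1 to 4. In the middle they gave 5320, 2419.7, 28019.5 and 15052, and at the 5′ end 1809, 491, 8858 and 5837. All 3 had the order of 1436722_a_at, with replicate 2 lowest, then 1, then 4, and replicate 3 highest, and their highest values were 4.80, 11.6 and 18.0 times their lowest. The 3′ to 5′ ratio of Actb, which rises as 5′ ends are lost to degradation or short copies, was 8.23, 19.8, 5.27 and 4.43 in replicates 1 to 4. That of Gapdh, the array's other mouse control, was 34.3, 36.9, 31.6 and 18.8. Replicate 2, lowest by 4 of the 5 Actb probe sets, had the highest 3′ to 5′ ratio of both genes, and by 1419734_at it was not low. The Actb ratio is formed from the 3′ and 5′ control probe sets, which are among those 4, so it is not separate from them. The ratio of the 3′ end to the middle was 2.80, 4.02, 1.67 and 1.72 for Actb in replicates 1 to 4, again highest in replicate 2, but 4.87, 4.01, 4.59 and 2.96 for Gapdh, where replicates 1 and 3 were higher. Where on the transcript 1419734_at and 1436722_a_at lie is not given in the sources used here, and the part of RNA quality in these values was not tested.

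**Figure D4:**
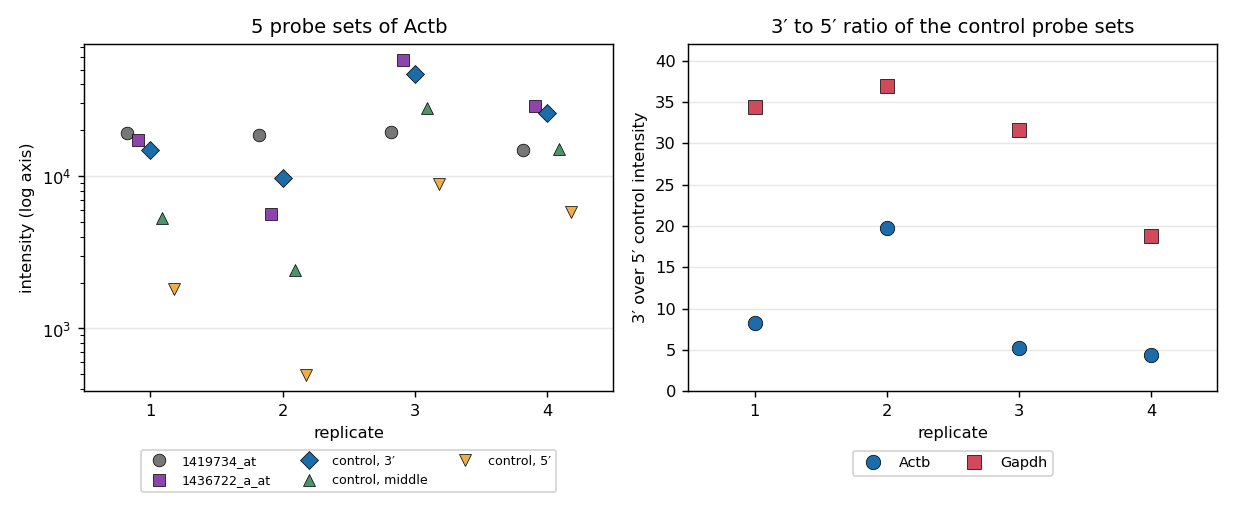
Left, intensity on a log axis of the 5 Actb probe sets in each sample; right, the ratio of the 3′ to the 5′ control intensity for Actb and Gapdh. By 1419734_at Actb stays between 14799.8 and 19468, while the other 4 probe sets are lowest in replicate 2, where both ratios are highest (19.8 and 36.9). The Actb ratio is formed from the 3′ and 5′ control probe sets drawn on the left.

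Genes that assemble and fold actin were above background in 38 of 40 cases, where 57.9% of all genes were. Of 25 measured assembly genes 23 passed, and the exceptions, named after their values were seen, were Vil1 (6.77 ± 1.62), the villin of microvilli, and Cap2 (7.96 ± 0.81). Pfn1, profilin, which loads actin monomers, had a level of 9.30 ± 0.29, and Cfl1, cofilin, which severs filaments, had 14.17 ± 0.54. Tmsb4x, thymosin beta 4, which holds monomers in reserve, had 16.16 ± 0.39, and Arpc2, a subunit of the branching complex Arp2/3, had 15.56 ± 0.36. In replicate 4, where Actg1 and 1419734_at were lowest, the list's median deviation was -0.30 with 8 of 25 genes higher, against 0.01 over all genes. That comparison is not at a like level, since the median level in replicate 4 was 13.38 for the list and 9.28 for all genes. The deviation of Actg1 in replicate 4 changed sign after quantile normalization, so no shared fall is read from these values. All 15 genes of folding and processing passed. Those of the chaperonin that folds new actin, Tcp1, Cct2, Cct3 and Cct4, had 15.26 ± 0.27, 15.25 ± 0.21, 15.46 ± 0.30 and 14.90 ± 0.12. Their list's median deviations lay between -0.09 and 0.11 in the 4 samples.

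The striated muscle actins were far higher in replicate 3 than in the other samples, where Acta1 was under the threshold and Actc1 over it in replicate 2 alone. Acta1, the skeletal alpha actin, had intensities of 10.4, 102, 30535 and 4.41 in replicates 1 to 4. It lay over the threshold in replicate 3 alone, where it was at least 208-fold higher than the other samples when these are set at their thresholds. Actc1, the cardiac alpha actin, had 105, 156, 8991 and 100.2, over the threshold in replicates 2 and 3. Replicate 3 was at least 55.5-fold higher than the others when replicates 1 and 4 are set at their thresholds. Replicate 3 was the farthest sample, high or low, for Acta1 and Actc1 and in all for 4 of the 12 actin probe sets. Of the 45037 probe sets without controls, 34.6% had their largest deviation there. The 4 include the 3′ control of Actb, at 1.59, which that share leaves out. They also include Acta2 1456658_at, which was low in replicate 3, at -1.36, and under the threshold in every sample. Neither Acta1 nor Actc1 passed the background test of the mean (adjusted p = 0.798 and 0.230). Without replicate 3 the SD of Acta1 was 1.36 log2 units, over values that were all under the threshold, against 4.92 with it, and that of Actc1 0.31, against 3.05. Their unadjusted spread p was 0.00136 and 0.00579, where 4.14% of all probe sets had one under 0.05, and adjusted over all probe sets both were 0.964. Without replicate 3 the unadjusted values were 0.110 and 0.837.

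Skeletal muscle genes were high in the same sample, and the heart list as a whole gave no clear direction. All 14 skeletal partners were over the threshold in replicate 3, where 67.4% of all genes were, and 3, 5 and 5 in the other samples. With values under a threshold set at it, their median stood at least 5.55 log2 units above the other samples, and the same median over all genes was 0.30. Myh4, which encodes a myosin of fast fibres, Tnnt3, fast troponin T, and Ckm, the creatine kinase of muscle, had levels of 16.39, 13.05 and 13.03 in replicate 3 and were under the threshold in every other sample. Tnni2, fast troponin I, had 11.86 in replicate 3 against 8.07 to 8.24 elsewhere, over the threshold throughout. Of the 14, 2 passed the background test of the mean, where 57.9% of all genes did, Tnni2 and Tcap, the second named after its values were seen. Among 14 heart partners 6 were over the threshold in replicate 3 and 6, 7 and 6 in the others. Their median deviation in replicate 3 was -0.24 as read and -0.69 after quantile normalization. With values under a threshold set at it the median was 0.37. Any gene under the threshold in every sample takes that value, so it tells nothing of these genes. As read, 7 of the 14 were higher in replicate 3 than the mean of the other samples, and no direction is read from the list. Myh6, the atrial and adult ventricular myosin of mice, Tnni3, cardiac troponin I, and Myl7, the atrial light chain, were under the threshold in every sample. Tnnt2, cardiac troponin T, was above background (8.81 ± 0.74) and was lowest in replicate 3, at 8.14. Myl3, a light chain of heart and slow skeletal muscle named after its values were seen, had 11.04 in replicate 3 and was under the threshold elsewhere. The summed intensity of the 6 skeletal markers was 122084 in replicate 3 against 532 to 588 elsewhere, and that of the 6 heart markers was 399.8 there against 451 to 944. The 6 skeletal markers are all among the 14 partners, and Myh4 alone gave 85860 of their sum in replicate 3. Of the heart markers only Tnnt2, with 266.7 in replicate 3, was over the threshold in any sample. The sum of all 14 heart partners was instead highest in replicate 3, at 7177 against 5400, 3451 and 6831 in replicates 1, 2 and 4. Myh7 and Tnnc1, partners named after their values were seen, are outside the 6 markers. Myh7 was over the threshold throughout, at 11.71, 9.58, 11.73 and 12.03 in replicates 1 to 4. Tnnc1 was over it in replicate 3 alone, at 7.67. The part of skeletal muscle tissue in the actin values of replicate 3 was not tested.

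Genes of the serum response factor pathway were above background in 9 of 11 cases, where 57.9% of all genes were. Srf had a level of 12.01 ± 0.22, with 12.32, 11.86, 11.85 and 12.02 in replicates 1 to 4, and did not share the high value of the smooth muscle actins in replicate 2. Its cofactors Mrtfa and Mrtfb, which respond to the pool of free actin, had 8.86 ± 0.32 and 15.21 ± 0.21, with Mrtfb highest in replicate 2 at 15.50. Myocd, the smooth and cardiac muscle cofactor, was under the threshold in every sample (5.65 ± 0.83). The list's median deviation was 0.49 in replicate 2 with 9 of 11 genes higher, and -0.11 when probe sets of a gene were averaged by their median. Among 11 actin-related protein genes 6 passed, a share near that of all genes. Actr1a, of the dynactin filament, had 13.25 ± 0.32, Actr3, of the Arp2/3 complex, had 15.35 ± 0.31, and Actr5 and Actr6, of chromatin remodelling complexes, had 10.06 ± 0.66 and 12.37 ± 0.34. The testis genes Actl7a, Actl7b, Actrt1 and Actrt2 and the neuronal Actl6b, named after their values were seen, did not pass. Of these, Actl7b was over the threshold in every sample (background test, adjusted p = 0.117) and the others in none.

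The genes nearest to each actin in centred profile were found among those over the threshold in at least 1 sample with an SD of at least 0.25. Over 4 arrays many genes fall close to any profile, so the names are a description. Nearest to Acta2 were Mef2c, Zbp1 and Tpm2, at root mean square differences of 0.046, 0.051 and 0.080 log2 units, and 1284 of 11627 genes lay within 0.5. Tpm2, beta tropomyosin, is itself a thin filament protein and had levels of 13.49, 14.85, 14.54 and 13.41. Nearest to Actg2 were Plet1os, Cdc7 and Ccr10, at 0.059, 0.094 and 0.151, with 367 genes within 0.5, and Plet1os and Ccr10 were over the threshold in replicate 2 alone. For Actb by its brightest probe set, 1436722_a_at, they were Cxcl13, Sfmbt1 and Kcnq1ot1, at 0.118, 0.163 and 0.166, with 151 within 0.5. Those of Actg1 were Msl1, Mrpl28 and Fam160b2, at 0.049, 0.056 and 0.057, with 5387 within 0.5. Nearest to Actc1 were Pbsn, Tmem182 and Mylpf, at 0.136, 0.195 and 0.299, with 18 within 0.5. Pbsn, the prostate secretory gene probasin, had 15.41 in replicate 3 against 8.80 to 9.42 elsewhere. No gene lay within 0.5 of Acta1, and the nearest were Pgam2, the muscle phosphoglycerate mutase, Cyp4f15 and Spink1, at 0.952, 1.07 and 1.14. These distances to Acta1 rest partly on its 3 values under the threshold. Values under it also enter for Zbp1 in replicates 1 and 4, Cxcl13 in replicate 2, Mylpf in replicate 1 and Spink1 in replicate 4. Tmem182, Pgam2 and Cyp4f15 were over it in replicate 3 alone.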

How the data were processed

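Total RNA of 4 adult ureter samples was hybridised to Affymetrix MOE430 arrays, 1 array a sample. The authors deposited 1 linear intensity per probe set and array. Per the submitters' processing notes the software was GCOS, with version and algorithm not given in the sources used here. Each array had a mean of 1500 once 2% of probe sets were trimmed at either end, so the deposited values had been scaled per array, and they were used as they stand. Detection calls were not used.

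Probe sets were named through the platform's annotation, in which 34945 of 45037 probe sets have 1 symbol, 932 several and 9160 none. The RefSeq gene table of GRCm38.p6, matched on gene identifiers, changed 0 symbols. The 64 control probe sets stayed out of the tests. Levels are log2(intensity + 16), so that differences between dim values are compressed. Background was set per array, at the 95th percentile of 86 probe sets for chemosensory receptors, of which 0 were called above it. Since these same probe sets set the threshold, that count is no check on false calls. Both tests used limma 3.58.1 in R 4.3.3 over all probe sets, with Benjamini-Hochberg adjustment and a threshold of 0.05. The background test was one-sided and moderated, on the mean distance to the arrays' thresholds, with a trended robust prior. The spread test was an F test of the variance over 4 arrays against the prior variance, with 3 and 4.24 degrees of freedom, adjusted over the probe sets above background. Both were tested on simulated data with 45037 probe sets. The background test called 56% of 50 probe sets placed 1 log2 unit above the threshold, 100% of those placed 2 units above it, and 1.5% of 2000 placed at it. The adjusted spread test called 0% of 50 probe sets with 1 array moved by 8 log2 units, and its unadjusted p was under 0.05 for 100% of them, 94% at 4 units, 40% at 2 units and 14% at 1 unit. A missed adjusted p for spread therefore says nothing about stability.

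A gene was read at its brightest probe set, and 1 probe set above background sufficed to call it. The text names all actin probe sets, the first 4 measured genes of each of 7 lists and, for each actin, the 3 genes nearest to it in profile. Any other gene is marked as named after its values were seen. The members, lists and tests were chosen with earlier results of these data known. Of the listed genes 8 had no probe set of their own and are not analysed here. Results were recomputed after quantile normalization, with a pseudocount of 1 or 64, with backgrounds at the 99th percentile or 3 median absolute deviations over the median, a constant prior, other filters and other handling of several probe sets of a gene, and without each array in turn.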

Additional observations from a re-analysis of the deposited data

Results flagged for a closer look

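Among 58 probe sets of actins and named genes, 12 had 1 sample far from the other 3, by the gap to the nearest sample over the whole range. Of these 58, 18 were chosen by their likeness to an actin, so that their far samples follow from the choice, and they gave 6 of the 12. The other 40 gave 6, 3 of them with replicate 3 as the far sample. Chance alone gives about 1 in 20 of such groups, a rate that does not apply to genes chosen by likeness. It is no measure for the other 40 either, since the members and lists were chosen with earlier results of these data known. The far sample was replicate 3 in 8 of the 12, replicate 4 in 3 and replicate 2 in 1. Of the actins, Actc1 was high in replicate 3 (gap over range 0.910) and Actb by 1419734_at was low in replicate 4 (0.835). In replicate 3 Myh4 (0.969), Tnni2 (0.956) and Mylpf (0.941), genes of fast skeletal muscle, were high, and so were Pgam2 (0.904), Tmem182 (0.977), Cyp4f15 (0.864) and Pbsn (0.907), 5 of these 7 having been found by their likeness to Acta1 or Actc1. Cald1 was high in replicate 2 (0.879). Cct4 (0.890) and Fam160b2 (0.846) were low in replicate 4, the second found by its likeness to Actg1.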

How the results depend on the processing

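The counts of 5 actin probe sets and 4 actin genes above background were the same with pseudocounts of 1 and 64 and quantile normalization. They also held with both other backgrounds, a constant prior and, but for 1 probe set, without any 1 replicate. The count of 0 with spread was the same too, but 0 of all probe sets passed that test in each setting. Because it called 0% of simulated probe sets with 1 array moved by 8 log2 units, that sameness carries no information. The count of 5 was also the same with dim probe sets left out or with no test. Without replicate 3 the count was 6, through Acta2 1444105_at. With _a_at, _s_at and _x_at probe sets left out, 1 actin gene passed, and by most probe sets of a gene 3 did. In all 18427 probe sets were above background, and 10971 with that background 3 median absolute deviations over the median. Replicate 3 was the farthest sample, high or low, in 4 of 12 actin probe sets, and in 3 to 8 with another left out (7 without replicate 2, 8 without replicate 4). The unadjusted spread p of Actg2 was 0.0239 without replicate 3 and 0.0429 without replicate 4, against 0.0640 with all 4, and that of Acta2 1416454_s_at was 0.0296, 0.0413 and, after quantile normalization, 0.0412, against 0.0565. With values under a threshold set at it, an alternative chosen after seeing the data, replicate 3 was the farthest sample in 3. Deviations of single actins moved by more than 1 SD in 7 cases and those of list medians in 6. No paired analysis was possible because all samples form 1 group. Few arrays, and signals near the thresholds, limit Acta1, Actc1 and the weaker Acta2 probe sets.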
